A study of Homo sapiens with 8 samples.

Results

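Transcripts of 9 genes were followed across 4 lines of LNCaP, a prostate adenocarcinoma cell line. FOXA1, HOXB13, GATA2 and GRHL2 are transcription factors that bind chromatin together with the androgen receptor, NCOA1, NCOA2 and NCOA3 are the p160 coactivators of steroid receptors, NR3C1 is the glucocorticoid receptor and ERG is an ETS transcription factor. They were taken by symbol from the table of 27140 genes, all 9 were found, and 7 of them had enough counts to be tested. Each line had 2 RNA sequencing libraries. All lines were made by stable lentiviral infection, under selection with 1 µg/ml of puromycin. The mutant rescue line carried a hairpin against METTL3 together with a hairpin-resistant METTL3 that lacks catalytic activity (shMETTL3_MT). In the wild-type rescue line the resistant METTL3 was wild type (shMETTL3_WT). The knockdown line carried the same hairpin with a vector (shMETTL3_vector), and the control line a control hairpin with a vector (shCtrl_vector). The labels do not say whether a line is a clone or a pool, or whether its 2 libraries came from separate cultures, so the p-values measure the spread between these libraries, which may be technical. Each condition is 1 line, so a condition and its line cannot be told apart.

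METTL3 is the enzyme that writes N6-methyladenosine into messenger RNA, most often within short motifs such as GGACT. FOXA1 and GATA2 act as pioneer factors, which open chromatin before the receptor binds, and HOXB13 and GRHL2 share many of the receptor's sites in prostate cells. The p160 proteins are recruited by the hormone-bound receptor and bring in histone acetyltransferases. The glucocorticoid receptor recognizes much the same DNA element as the androgen receptor, and ERG is the gene most often fused to the TMPRSS2 promoter in prostate cancer.

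The methylation motif was searched in 1 annotated coding transcript of each gene, in the GENCODE annotation of GRCh38. GGACT occurred on the transcript strand at 5 places in FOXA1, 7 in HOXB13, 3 in GATA2, 6 in GRHL2, 3 each in NCOA1 and NCOA2, 4 in NCOA3, 5 in NR3C1 and 7 in ERG. Per kilobase this ranged from 0.355 in NCOA2 and 0.405 in NCOA1 to 1.75 in FOXA1 and 2.02 in HOXB13, beside a median of 0.941 and quartiles of 0.572 and 1.41 over 13235 tested genes. The p160 genes thus held the motif less densely than that median, since NCOA3 stood at 0.857, although its annotated transcript (4668 bases) is shorter than the length in the deposited table (8026 bases). A match shows only that the letters are present, and methylation was not measured in these libraries. HOXB13 and ERG had 0 coding matches, and the 7 matches of each lay beyond the stop codon. GRHL2, NCOA2 and NR3C1 had coding matches that are not shown. For FOXA1, GATA2, NCOA1 and NCOA3, the coding match nearest the stop codon is given in 21 bases. Letters run 5′ to 3′ on the gene's own strand, with GGACT in capitals. That match lies 167 bases before the stop codon in FOXA1, 649 in GATA2, 748 in NCOA1 and 1794 in NCOA3. Matches beyond the stop codon were not considered for these windows. The windows lie in GRCh38 at chr14:37591527-37591547 on the minus strand (FOXA1), chr3:128485799-128485819 on the minus strand (GATA2), chr2:24741917-24741937 on the plus strand (NCOA1) and chr20:47637737-47637757 on the plus strand (NCOA3), all in coding exons.
FOXA1: cataagctGGACTtcaaggca
GATA2: acagcagcGGACTcttccacc
NCOA1: cctcatctGGACTaccagttc
NCOA3: tcatctggGGACTaagcaaca

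The libraries held 15200343 to 17893241 counts, and 15289 genes were tested. METTL3 itself stood at 333.3 and 334.2 CPM (counts scaled to library size) in the mutant rescue, 309.4 and 324.6 CPM in the wild-type rescue, 26.2 and 31.3 CPM in the knockdown and 68.4 and 68.5 CPM in the control. The knockdown libraries were thus the lowest and both rescues stood above the control. All 10 luminal prostate markers found, KLK3 among them, were detected in every library. Their summed level was 6762 to 6793 CPM in the mutant rescue, 7090 to 7132 CPM in the wild-type rescue, 6929 to 6960 CPM in the knockdown and 8694 to 8738 CPM in the control. Of the markers of other cell types, the basal keratin KRT5 was at 0 in 7 of the 8 libraries and the fibroblast collagen COL1A2 in all 8, while the basal keratin KRT14 (2.26 to 3.47 CPM), COL1A1 (76.3 to 103 CPM), the macrophage marker CD68 (15.5 to 26.2 CPM) and the endothelial marker VWF (5.04 to 10.6 CPM) were expressed. TP63 and DSC3, also basal, were detected in every library below 1 CPM. The other leukocyte markers, PTPRC, CD3E, CD79A and LYZ, reached at most 0.595 CPM (LYZ, mutant rescue replicate 1). The other endothelial markers, PECAM1, CDH5 and KDR, reached at most 0.387 CPM (PECAM1, wild-type rescue replicate 1). The 5 basal markers summed to 3.08 to 3.24 CPM in the mutant rescue, 3.54 to 4.42 CPM in the wild-type rescue, 3.37 to 5.19 CPM in the knockdown and 3.72 to 4.74 CPM in the control. In bulk RNA, fewer cells of a type and less RNA per cell cannot be told apart.

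Levels between genes were compared as RPKM, which is CPM per kilobase of the length in the table. In the control the order was FOXA1 (191.9 RPKM), HOXB13 (175.4), GATA2 (113.7), GRHL2 (45.7), NCOA2 (9.59), NCOA3 (8.12), NCOA1 (7.07), NR3C1 (0.0467) and ERG, which had no count. The libraries of neighbouring genes did not overlap in this order. The 4 lineage factors therefore stood above the p160 coactivators in level per length, and the coactivators stood far above the glucocorticoid receptor. The first 2 places changed in the mutant rescue, with HOXB13 at 156.7 to 160.5 RPKM and FOXA1 at 143.8 to 152.3 RPKM. In all other lines NCOA3 took the place above NCOA2 that it did not have in the control.

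**Figure D1:**
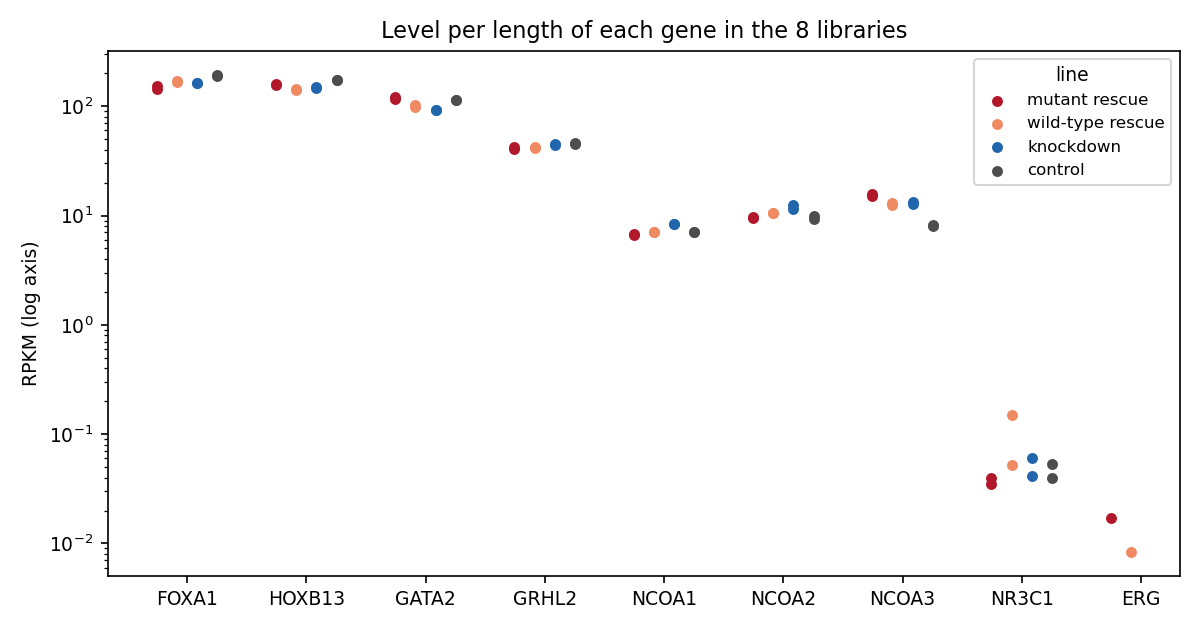
Level per length (RPKM, log axis) of the 9 genes in each of the 8 libraries, coloured by line; libraries with no count are not drawn. The lineage factors lie between 40.9 and 194.6 RPKM and the p160 coactivators between 6.68 and 15.6 RPKM, while NR3C1 and ERG lie below 0.2 RPKM.

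The first comparison asks what depletion of METTL3 does to the receptor's partners. In the knockdown, against the control, FOXA1, HOXB13 and GATA2 fell, all 3 p160 coactivators rose, and GRHL2 did not pass the test. Of the 7 genes tested, 3 were called higher and 3 lower at an edgeR adjusted p under 0.05, where 48% of all genes tested were called (22.9% higher and 25.1% lower). Among genes at a mean of at least 40 CPM, a level that all 7 reach and that was chosen after the data were seen, 64.7% were called, so a call alone is common for genes of this level.

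FOXA1 stood at 548.5 and 549.3 CPM in the knockdown, against 657.7 and 639.8 CPM in the control. The lines did not overlap, and the log2 fold change was -0.24 (SE 0.02, adjusted p = 7.49e-21). HOXB13, a homeobox factor of the prostate, had 453.1 and 448.6 CPM in the knockdown, against 532.4 and 532.5 CPM in the control (log2 fold change -0.24, SE 0.02, adjusted p = 3.42e-20). Both genes thus fell by nearly the same amount. GATA2 had 348.0 and 346.6 CPM in the knockdown, against 425.6 and 430.5 CPM in the control, and fell by 0.30 on the log2 scale (SE 0.02, adjusted p = 2.28e-25). GRHL2, a grainyhead factor that maintains epithelial identity, had 237.1 and 233.6 CPM in the knockdown, against 240.3 and 243.1 CPM in the control. Its libraries did not overlap either, but the log2 fold change of -0.04 (95% interval -0.09 to 0.02) did not pass the test (adjusted p = 0.250).

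NCOA3, also known as AIB1 or SRC-3, changed most of the 7 genes. It had 101.4 and 106.6 CPM in the knockdown, against 65.5 and 64.9 CPM in the control. Both knockdown libraries lay well above the control, 1.59-fold on average (log2 fold change 0.67, SE 0.04, adjusted p = 1.04e-31). In size this change exceeded that of 90.8% of all genes tested, whereas FOXA1 stood at 59.1% and GATA2 at 67.6% of that ranking. The median size of change was 0.19 over all genes but 0.14 among those of at least 40 CPM, where ranks were not counted. NCOA2, also known as TIF2 or GRIP1, had 101.7 and 109.9 CPM in the knockdown, against 82.5 and 86.5 CPM in the control, a log2 fold change of 0.32 (SE 0.04, adjusted p = 1.89e-11). NCOA1, also known as SRC-1, had 58.0 and 58.4 CPM in the knockdown, against 48.7 and 49.6 CPM in the control (log2 fold change 0.24, SE 0.05, adjusted p = 1.74e-05). The 3 coactivators thus differed in the size of the rise, and the share of NCOA3 in their summed RPKM was 38.9% in both knockdown libraries, against 33.3% and 32.3% in the control libraries. Log2 fold changes in this comparison rose weakly with gene length over all genes (Spearman's rho 0.13 over 15289 genes, which are not independent). With that trend removed, NCOA3 stood at 0.60, NCOA2 at 0.23 and NCOA1 at 0.19, and all 6 calls remained.

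**Figure D2:**
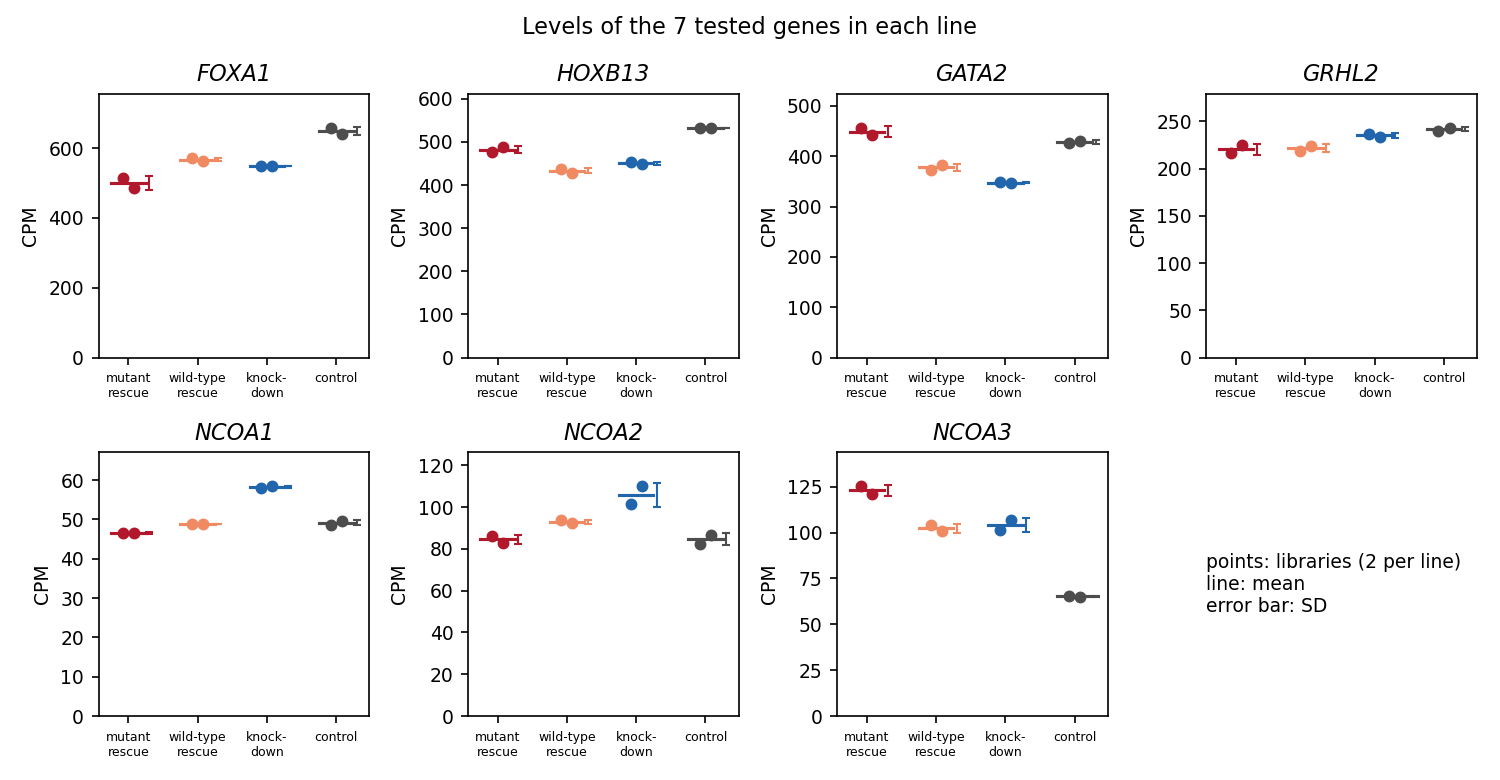
CPM of the 7 tested genes in the 4 lines, with 1 point per library, a line at the mean and a bar for the SD (n = 2). The control is the highest line for FOXA1 and HOXB13 and the lowest for NCOA3, and the knockdown is the highest for NCOA1 and NCOA2.

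The second comparison asks which of these changes a wild-type METTL3 turns back. It shares the knockdown libraries with the first, so a fall here and a rise there are not independent. In the wild-type rescue, against the knockdown, GATA2 rose, HOXB13, GRHL2, NCOA1 and NCOA2 fell, and FOXA1 and NCOA3 did not pass the test. Over all genes 24% were called (10.8% higher and 13.2% lower), and 42.8% among those of at least 40 CPM. NCOA1 stood at 48.9 and 48.8 CPM in the wild-type rescue, against 58.0 and 58.4 CPM in the knockdown (log2 fold change -0.25, SE 0.05, adjusted p = 1.78e-05). This level lay within the range of the control libraries, and the wild-type rescue minus control difference was -0.01 (95% interval -0.11 to 0.09). GATA2 had 373.4 and 382.7 CPM in the wild-type rescue, against 348.0 and 346.6 CPM in the knockdown (log2 fold change 0.12, SE 0.02, adjusted p = 6.51e-06). It remained below the control, by a log2 fold change of -0.18 (SE 0.02, adjusted p = 6.18e-12). NCOA2 had 93.6 and 92.3 CPM in the wild-type rescue, against 101.7 and 109.9 CPM in the knockdown (log2 fold change -0.19, SE 0.04, adjusted p = 1.43e-04).

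FOXA1 had 570.7 and 563.8 CPM in the wild-type rescue, against 548.5 and 549.3 CPM in the knockdown. The log2 fold change was 0.05 (95% interval 0.01 to 0.09) and did not pass the test (adjusted p = 0.0944). NCOA3 had 103.9 and 100.6 CPM in the wild-type rescue, against 101.4 and 106.6 CPM in the knockdown. These libraries overlapped, and the log2 fold change was -0.02 (95% interval -0.10 to 0.05, adjusted p = 0.724). NCOA3 thus remained 1.57-fold above the control in the wild-type rescue (log2 fold change 0.65, SE 0.04, adjusted p = 3.05e-30). HOXB13 fell slightly, with 437.7 and 428.8 CPM in the wild-type rescue, against 453.1 and 448.6 CPM in the knockdown (log2 fold change -0.06, SE 0.02, adjusted p = 0.0388). GRHL2 had 218.4 and 224.4 CPM in the wild-type rescue, against 237.1 and 233.6 CPM in the knockdown (log2 fold change -0.09, SE 0.03, adjusted p = 0.00951).

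These small falls depended on the processing. Across all genes, the wild-type rescue minus knockdown change fell with gene length (Spearman's rho -0.35), and the table gives 8812 bases for NCOA2 and 6951 for NCOA1. With the length trend removed, the log2 fold change was -0.07 for NCOA2 (adjusted p = 0.265), -0.16 for NCOA1 (adjusted p = 0.0123) and -0.04 for GRHL2 (adjusted p = 0.384). NCOA2 was also not called without knockdown replicate 2 (adjusted p = 0.0545). HOXB13 was not called without either knockdown library (adjusted p = 0.208 and 0.0703), without either control library (0.0563 and 0.0558), without wild-type rescue replicate 2 (0.279) or by DESeq2 (0.110). GRHL2 was not called without knockdown replicate 1 (0.113), without wild-type rescue replicate 1 (0.133) or by DESeq2 (0.0797).

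The catalytically dead METTL3 was set against the same knockdown libraries. In the mutant rescue, against the knockdown, all 7 genes were called, 3 higher and 4 lower, where 51.7% of all genes tested were called (25.9% higher and 25.8% lower), and 71.2% among those of at least 40 CPM. GATA2 rose to 456.3 and 441.8 CPM in the mutant rescue, against 348.0 and 346.6 CPM in the knockdown (log2 fold change 0.37, SE 0.02, adjusted p = 2.09e-33). NCOA3 had 125.1 and 120.7 CPM in the mutant rescue, against 101.4 and 106.6 CPM in the knockdown (log2 fold change 0.24, SE 0.04, adjusted p = 2.71e-08). Both genes were higher in each mutant rescue library than in either knockdown library. The other tested genes did not overlap either, but how many of all genes did so was not counted. FOXA1 had 514.7 and 485.9 CPM in the mutant rescue, against 548.5 and 549.3 CPM in the knockdown (log2 fold change -0.13, SE 0.02, adjusted p = 3.70e-08). NCOA1 and NCOA2 both fell by 0.32 on the log2 scale (SE 0.05 and 0.04). With the length trend removed the fall of NCOA2 was 0.20 in size (log2 fold change -0.20, adjusted p = 1.93e-05). HOXB13 rose by 0.10 (SE 0.02) and GRHL2 fell by 0.09 (SE 0.03). The GRHL2 call ended without mutant rescue replicate 1 (adjusted p = 0.0892) and with the length trend removed (adjusted p = 0.101).

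**Figure D3:**
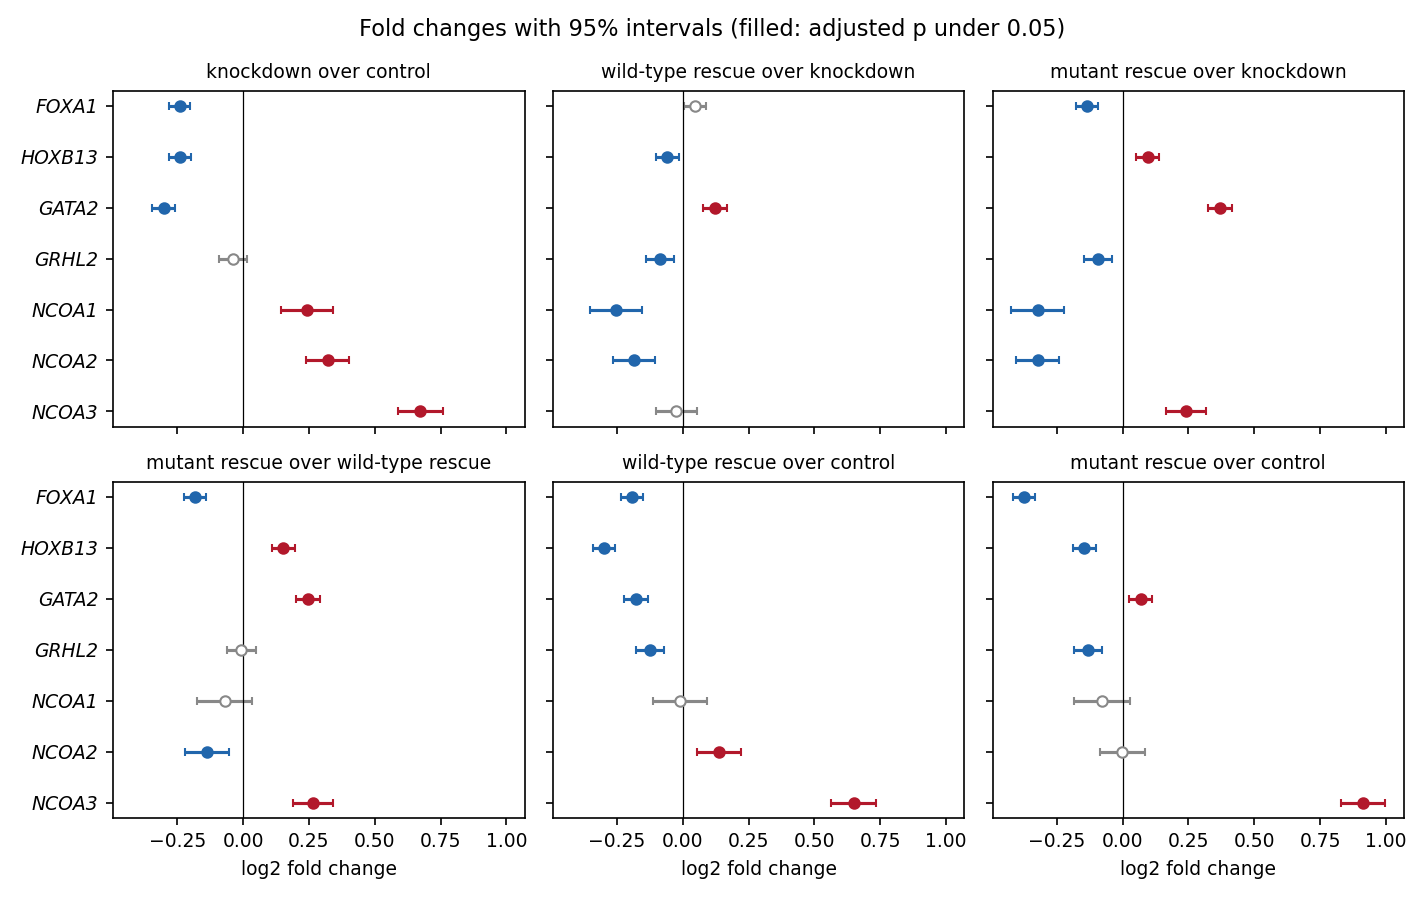
Log2 fold changes of the 7 tested genes in the 6 comparisons, with 95% intervals; filled points passed an adjusted p under 0.05 and open points did not. NCOA3 lies furthest right in the 3 comparisons with the control, at 0.67, 0.65 and 0.91.

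The fourth comparison sets the mutant against the wild-type rescue, 2 lines whose introduced METTL3 differs in catalytic activity. Between the rescues, mutant over wild type, HOXB13, GATA2 and NCOA3 rose and FOXA1 and NCOA2 fell, while GRHL2 and NCOA1 did not pass the test. Over all genes 41.3% were called (21% higher and 20.3% lower), and 60.5% among genes of at least 40 CPM. METTL3 was itself 1.05-fold higher in the mutant rescue (adjusted p = 0.0161), a call that ended without wild-type rescue replicate 1 (log2 fold change 0.04, adjusted p = 0.346). NCOA3 stood at 125.1 and 120.7 CPM in the mutant rescue, against 103.9 and 100.6 CPM in the wild-type rescue (log2 fold change 0.27, SE 0.04, adjusted p = 2.33e-09). GATA2 had 456.3 and 441.8 CPM in the mutant rescue, against 373.4 and 382.7 CPM in the wild-type rescue (log2 fold change 0.25, SE 0.02, adjusted p = 2.31e-19). Neither gene overlapped between the rescues, but NCOA1, which did not pass the test, did not overlap either. The share of all genes without overlap was not counted.

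HOXB13 had 475.8 and 487.4 CPM in the mutant rescue, against 437.7 and 428.8 CPM in the wild-type rescue (log2 fold change 0.15, SE 0.02, adjusted p = 1.04e-09). FOXA1 went the other way, with 514.7 and 485.9 CPM in the mutant rescue, against 570.7 and 563.8 CPM in the wild-type rescue (log2 fold change -0.18, SE 0.02, adjusted p = 7.75e-13). The 3 pioneer or lineage factors that had fallen together in the knockdown thus differed in direction between the rescues. NCOA2 had 86.1 and 82.9 CPM in the mutant rescue, against 93.6 and 92.3 CPM in the wild-type rescue (log2 fold change -0.14, SE 0.04, adjusted p = 0.00592). This call ended without mutant rescue replicate 2 (adjusted p = 0.109) and by DESeq2 (0.0797). GRHL2 had 216.4 and 224.6 CPM in the mutant rescue, against 218.4 and 224.4 CPM in the wild-type rescue, with a 95% interval of -0.06 to 0.05 on the log2 scale. NCOA1 had 46.4 and 46.6 CPM in the mutant rescue, against 48.9 and 48.8 CPM in the wild-type rescue, with a 95% interval of -0.17 to 0.04.

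Both rescues were also set against the control, with the control libraries shared by these comparisons. In the mutant rescue, against the control, NCOA3 was 1.88-fold higher (log2 fold change 0.91, SE 0.04, adjusted p = 1.26e-46), a change larger than that of 92.7% of genes tested. FOXA1 fell by 0.38 on the log2 scale (SE 0.02, adjusted p = 1.39e-36), HOXB13 by 0.14 (SE 0.02) and GRHL2 by 0.13 (SE 0.03). GATA2 was slightly above the control, at a log2 fold change of 0.07 (SE 0.02, adjusted p = 0.00528). That call ended without mutant rescue replicate 1 (adjusted p = 0.143) or control replicate 1 (0.0791). NCOA1 (95% interval -0.18 to 0.03) and NCOA2 (95% interval -0.09 to 0.09) did not pass the test. In all, 5 of 7 genes were called, 2 higher and 3 lower, where 58.8% of all genes were (29.1% higher and 29.7% lower), and 75.4% among those of at least 40 CPM. In the wild-type rescue, against the control, 6 of 7 were called, 2 higher and 4 lower, beside 49.3% of all genes (23.8% higher and 25.5% lower) and 66.9% among those of at least 40 CPM. HOXB13 fell there by 0.30 (SE 0.02), FOXA1 by 0.19 (SE 0.02) and GRHL2 by 0.13 (SE 0.03). NCOA2 was higher by 0.14 (SE 0.04, adjusted p = 0.00470), a call that ended without control replicate 1 (adjusted p = 0.118) and by DESeq2 (0.0681).

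The share of NCOA3 in the summed RPKM of the 3 p160 genes was 48.6% and 48.3% in the mutant rescue, 42.3% and 41.8% in the wild-type rescue, 38.9% in both knockdown libraries and 33.3% and 32.3% in the control. The 4 lines did not overlap in this share. The summed RPKM of the 3 genes was 31.2 and 32.0 RPKM in the mutant rescue, 30.0 and 30.6 RPKM in the wild-type rescue, 32.5 and 34.2 RPKM in the knockdown and 24.5 and 25.05 RPKM in the control. NCOA3 was the only tested gene of the 7 whose line means differed by at least 0.5 on the log2 CPM scale, the others spanning 0.13 to 0.38. The genes most like it over the 8 libraries, by the root mean square difference of centred log2 CPM among 11028 candidates, were LSM11 (0.0541), MED13L (0.0594) and HIST1H2AC (0.0610). MED13L, a subunit of the Mediator kinase module, had 112.9 and 116.0 CPM in the mutant rescue, 98.9 and 103.1 CPM in the wild-type rescue, 104.2 and 104.7 CPM in the knockdown and 66.2 and 64.8 CPM in the control.

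Genes that lie near a factor on the genome were also read, since the strand setting of the counting is not given in the sources used here. GATA2-AS1, which lies antisense to GATA2, had 34.9 and 37.3 CPM in the mutant rescue, 40.7 and 40.3 CPM in the wild-type rescue, 47.7 and 45.9 CPM in the knockdown and 49.7 and 47.4 CPM in the control. It was lower in the mutant rescue than in the knockdown by a log2 fold change of -0.38 (SE 0.06, adjusted p = 1.00e-08), where GATA2 was higher. TTC6, a neighbour of FOXA1, had 292 to 357 CPM over the 8 libraries. It fell in the mutant rescue, against the control, by 0.24 (SE 0.02), the same direction as FOXA1. How many reads of such pairs were shared, and whether TTC6 overlaps FOXA1, was not tested. SULF2, a neighbour of NCOA3 whose overlap was not tested either, had between 0.63 and 1.998 CPM in each library.

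NR3C1 was nearly silent. It had 5 and 6 counts in the mutant rescue, 22 and 9 counts in the wild-type rescue, 7 and 9 counts in the knockdown and 8 and 6 counts in the control, too few to pass the filter. Wild-type rescue replicate 1 had the highest count, with an exact two-sided Poisson 95% interval of 13.8 to 33.3 counts, which covers counting error only. The other library of that line had 9 counts, with an interval of 4.12 to 17.1 that overlaps it. With no filter on low counts, NR3C1 differed between the mutant and the wild-type rescue by a log2 fold change of -1.36 (SE 0.53, adjusted p = 0.0387). Without wild-type rescue replicate 1, which was left out after its counts were seen, the difference was -0.49 (SE 0.71, adjusted p = 0.751).

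The same library was high in other genes. In it, 33 genes with at least 20 counts reached 2 times or more the highest CPM of the other 7 libraries, where the other libraries had 0 or 1 such gene each. NR3C1 was among the 33, with AKR1B1 (4.64 CPM against at most 0.755 elsewhere), the calcium-binding protein S100A6 (4.96 against 1.07), BASP1 (10.5 against 2.61), the glutathione transferase GSTP1 (2.45 against 0.662) and the caveolar protein CAV1 (1.42 against 0.595). Likeness to NR3C1 was searched among genes at a mean of at least 5 CPM, so CAV1 and GSTP1 were not candidates. The most like over the libraries were VIM (root mean square difference 0.282), CLU (0.320) and SLC7A5 (0.355). VIM, an intermediate filament of mesenchymal cells, had 14.8 CPM in wild-type rescue replicate 1 and 7.01 to 9.03 CPM in the others. Where the RNA of these genes came from was not tested.

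**Figure D4:**
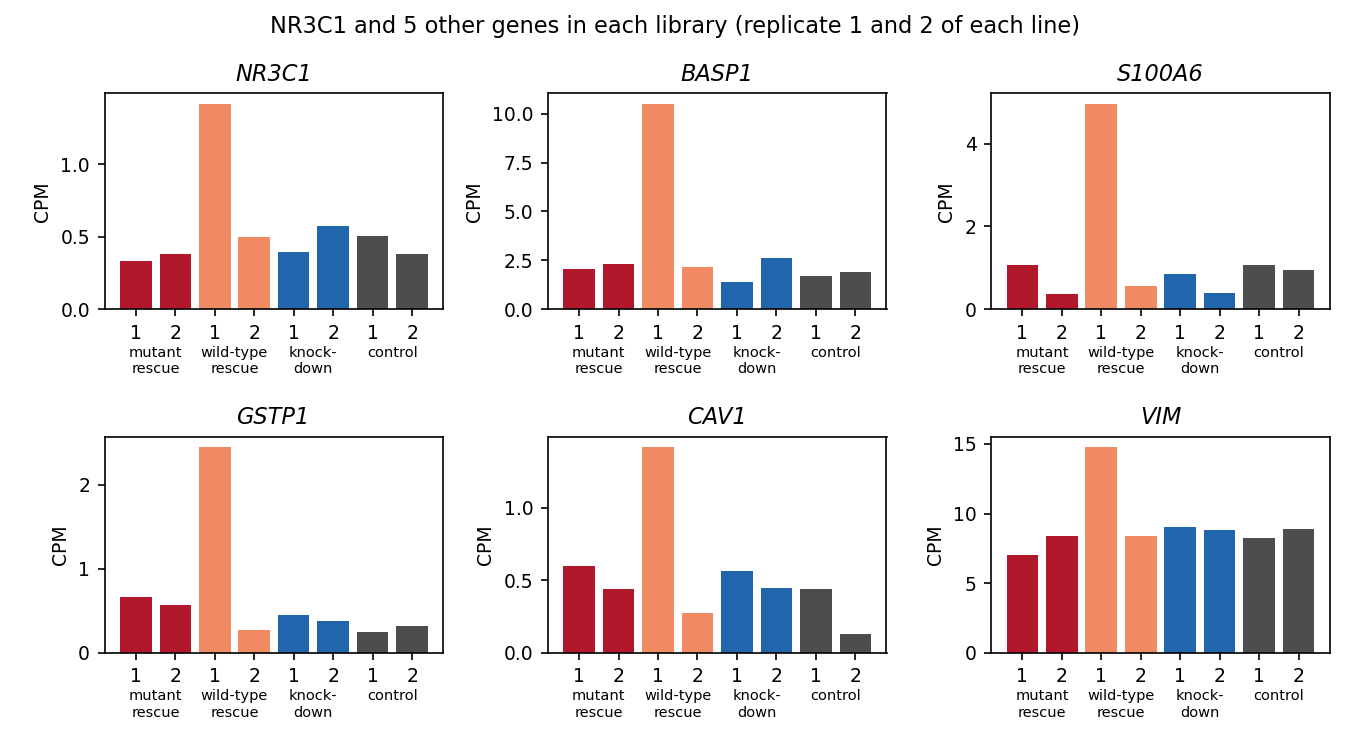
CPM of NR3C1 and of 5 other genes in each library (bars, replicates 1 and 2 of each line). Wild-type rescue replicate 1 is the highest bar in each panel, at 1.42 CPM for NR3C1 and 10.5 CPM for BASP1.

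ERG had 2 counts in mutant rescue replicate 1, 1 count in wild-type rescue replicate 1 and none in the other 6 libraries. A count of 0 allows a mean of up to 3 counts (one-sided, counting error only), or 0.166 to 0.191 CPM in those 6 libraries, so no difference in ERG was detectable at this depth. ETV1, the ETS gene rearranged in LNCaP, was by contrast at a mean of 265 CPM in the mutant rescue, 337 CPM in the wild-type rescue, 347 CPM in the knockdown and 411 CPM in the control.

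Related factors were read from lists, described by counts and medians beside those of all genes tested, for 2 of the comparisons. In the knockdown, against the control, the median over all genes was -0.01, and 22.9% of them were called higher and 25.1% lower (30.3% and 34.4% among genes of at least 40 CPM). Of 24 other steroid receptor coactivators tested, 7 rose and 7 fell (median 0.01), shares close to those of all genes. The histone demethylase KDM3A rose by 0.59 (SE 0.05) and its relative JMJD1C by 0.37 (SE 0.04), and NCOA6 fell by 0.28 (SE 0.04). Without control replicate 1, or by DESeq2, 4 coactivators were called higher. Of 17 corepressors, 3 rose and 9 fell (median -0.06). The NCoR complex subunit GPS2 fell by 0.37 (SE 0.10) and CTBP1 by 0.30 (SE 0.03), and NRIP1, also known as RIP140, rose by 0.31 (SE 0.04). DESeq2 called 5 corepressors lower.

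Of 16 chaperones and cochaperones that fold steroid receptors, 3 rose and 11 fell in the knockdown, against the control (median -0.13). Over all genes 22.9% were called higher and 25.1% lower, or 30.3% and 34.4% among genes of at least 40 CPM. HSPA8, the constitutive heat shock protein 70, rose by 0.44 (SE 0.02) and the cochaperone FKBP5, an androgen-induced gene, fell by 0.31 (SE 0.02). Of 20 other transcription factors of prostate or secretory epithelium, 4 rose and 11 fell (median -0.11). SPDEF, an ETS factor of secretory cells, had 140.6 CPM in the knockdown, against 215.2 CPM in the control (log2 fold change -0.61, SE 0.03, adjusted p = 1.13e-42). CREB3L4 fell by 0.55 (SE 0.05), and GRHL1, a paralogue of GRHL2, rose by 0.55 (SE 0.08). GRHL1 is counted again with the paralogues below. Of the luminal markers given above, 8 of 10 were lower in the knockdown and 2 higher. The 2 higher were FOLH1 and ACPP. ACPP had 53.4 and 51.8 CPM in the knockdown, against 19.2 and 21.1 CPM in the control. Of the tested markers of other cell types, 1 of 3 basal (TP63), 2 of 4 fibroblast (COL1A1 and LUM) and 1 endothelial marker (VWF, log2 fold change 0.44, SE 0.13) were higher in the knockdown, and CD68 (-0.45, SE 0.08) and SYP (-0.57, SE 0.24) were lower. The part of these markers in the result was not tested. The ETS factors SPDEF, ELF3 and EHF were counted with the epithelial factors above. Of 19 other ETS family genes tested, 4 rose and 5 fell (median 0.03), with ELK4 at -0.50 (SE 0.03). Without knockdown replicate 1, or by DESeq2, 2 were called higher. Of 10 tested paralogues and cluster neighbours of the lineage factors, 4 rose and none fell (median 0.19), with HOXC13 at 0.48 (SE 0.09), but 2 were called higher without either control library or by DESeq2. Of 5 other steroid receptors tested, 1 rose, the mineralocorticoid receptor NR3C2 (log2 fold change 0.52, SE 0.15), a call that ended without control replicate 1 (adjusted p = 0.156) or by DESeq2 (0.0694).

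For the mutant over the wild-type rescue, the median over all genes was 0.00, and 21% of them were called higher and 20.3% lower (33.3% and 27.2% among genes of at least 40 CPM). There 1 of the 16 chaperones rose and 11 fell (median -0.19). BAG1, a nucleotide exchange factor of heat shock protein 70, fell by 0.67 (SE 0.09), HSPA8 by 0.48 (SE 0.02) and the cyclophilin PPID by 0.44 (SE 0.06). Of the other coactivators 6 rose and 8 fell (median -0.02), with the RNA helicase DDX5 at -0.49 (SE 0.02) and KDM3A at 0.33 (SE 0.05). Leaving out mutant rescue replicate 1 gave 5 that fell, as did leaving out wild-type rescue replicate 2, DESeq2 or no filter. Of the corepressors 6 rose and 5 fell (median 0.03), with the histone deacetylase HDAC2 at -0.45 (SE 0.04) and NRIP1 at -0.34 (SE 0.04). Among the epithelial factors 7 rose and 6 fell (median 0.03), with ELF3 at 0.49 (SE 0.03) and ONECUT2 at 0.48 (SE 0.05), and DESeq2 called 4 higher. Of the 19 other ETS family genes, 1 rose and 3 fell (median 0.07), with ETV1 at -0.35 (SE 0.02). ELF3 and EHF, ETS factors counted with the epithelial factors, were both called higher. Beside these lists, 2 luminal markers of 10 were higher and 6 lower (median -0.16), COL1A1 and CD68 were higher, and TP63 and COL3A1 were lower, and their part in the result was not tested.

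Genes induced through the glucocorticoid receptor, several of which androgen also induces, were read because NR3C1 was so low. FKBP5, counted with the chaperones above, is again among these genes. Of 14 such genes, 9 rose and none fell in the mutant over the wild-type rescue (median 0.27), where 21% of all genes were called higher, or 33.3% of those of at least 40 CPM. PER1, a circadian repressor, had 176.9 CPM in the mutant rescue, against 86.8 CPM in the wild-type rescue (log2 fold change 1.03, SE 0.04, adjusted p = 5.34e-58). TSC22D3, also known as GILZ, rose by 0.91 (SE 0.04) and ZBTB16 by 0.62 (SE 0.05). Without wild-type rescue replicate 2, 1 gene of the list was called lower. In the knockdown, against the control, 6 rose and 6 fell (median -0.14), beside 22.9% and 25.1% of all genes. TSC22D3 had 66.2 CPM in the knockdown, against 123.5 CPM in the control (log2 fold change -0.90, SE 0.04), while CEBPD rose by 0.63 (SE 0.05).

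**Figure D5:**
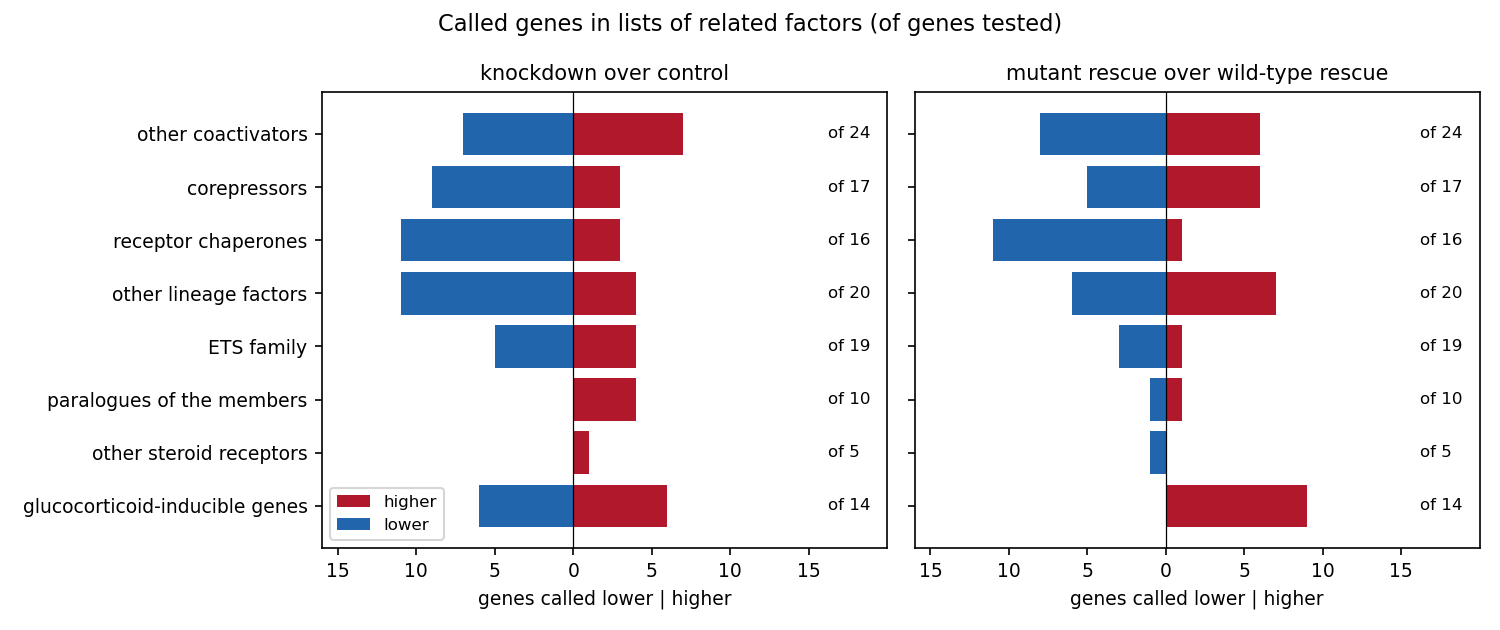
Number of genes called lower (left) and higher (right) in each list of related factors, with the number tested, in 2 comparisons. Chaperones were mostly lower in both, 11 of 16, and the glucocorticoid-inducible genes had 9 of 14 higher in the mutant rescue. GRHL1 and FKBP5 are each counted in 2 lists.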

How the data were processed

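RNA was sequenced from 8 LNCaP libraries prepared with a stranded messenger RNA kit, per the labels' protocols. The deposited table gives 1 column of raw gene counts a library, made by the authors, and a further column of another kind with gene lengths in bases. STAR 2.5.2b, CASAVA, DESeq2, featureCounts and hg19 are named in the submitters' processing notes. The annotation and strand setting are not given in the sources used here.

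Low genes were dropped with filterByExpr (minimum count of 10 and minimum total of 15, by line). Counts were scaled by TMM and fitted in edgeR 4.0.16 (R 4.3.3) by robust quasi-likelihood with 1 mean per line over all 8 libraries. The 6 comparisons were tested two-sided, with Benjamini-Hochberg adjustment over 15289 genes and calls under 0.05. Because the test has no minimum fold and the spread was small (biological coefficient of variation 1.40%), small changes are called. Each SE is the size of the log2 fold change over the root of the F statistic, and 95% intervals are 1.96 of them to either side. An exact permutation test of 2 libraries against 2 cannot reach 0.05. The 2 libraries of each line were not alike to within sampling noise (chi-square per degree of freedom 1.21 to 1.36).

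The genes and lists were chosen with earlier results of these data known. List genes named are among the 3 largest changes called at a mean of at least 5 CPM. ETV1 in all lines, the genes near a factor and the genes of wild-type rescue replicate 1 were chosen after their values were seen. Alternatives were DESeq2 1.42.0 size factors, no low-count filter, DESeq2's Wald test, a fit of only the groups compared, removal of the length trend (lowess, span 0.3), a replicate block and each library left out. Steps were tested on simulated data. The androgen receptor's own transcript was not analysed here.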

Additional observations from a re-analysis of the deposited data

How the results depend on the processing

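The number of the 7 genes called changed by more than 1.5 times in 1 comparison only. In the wild-type rescue, against the knockdown, it was 5, and 3 by DESeq2, with the length trend removed, or without either knockdown library (range 3 to 5 over libraries left out). DESeq2 called 4767 genes in place of 7337 in the knockdown against the control, 1705 in place of 3673 in the wild-type rescue against the knockdown, 3749 in place of 6307 between the rescues, and 4995 in place of 7531 in the wild-type rescue against the control. Leaving out a library gave 2473 to 3680 genes in the wild-type rescue against the knockdown, and 6020 to 7435 in the knockdown against the control.

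Among the 7 genes, every value that changed sign was one that had not passed the test. NCOA3 in the wild-type rescue against the knockdown became 0.083 with the length trend removed and ranged from -0.061 to 0.011 over libraries left out. GRHL2 between the rescues became 0.0013 with no filter and 0.015 without wild-type rescue replicate 2, and ranged from -0.034 to 0.019 over libraries left out. NCOA1 in the wild-type rescue against the control became 0.025 with the length trend removed and ranged from -0.025 to 0.0034 over libraries left out. NCOA2 in the mutant rescue against the control became 0.0011 with DESeq2 size factors, 0.0070 with no filter, 0.0013 by DESeq2, 0.00011 with only the groups compared and 0.035 with the length trend removed, and ranged from -0.036 to 0.035 over libraries left out. The causes were not tested.

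Same-numbered libraries did not deviate together (correlations -0.04 to 0.03). This shows no sign of pairing by number but cannot exclude it, since counting noise could hide a small shared deviation. With the replicate number as a block, 7369 genes were called in the knockdown against the control, and no call of the 7 genes changed. Lists beyond these genes were run through the alternatives after results were seen. Depth limits NR3C1 and ERG.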
